A study of Mus musculus with 35 samples.

Results

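Sorted LT-HSCs (long-term haematopoietic stem cells), which renew themselves and give rise to the whole blood system, were compared between mice with and without the JAK2-V617F mutation. The 6 JAK2VF libraries carry the labels SclCre JAK2V617F and Ezh2 +/+, and the 4 control libraries carry SclCre and Ezh2 +/+. These 10 libraries were picked by their titles from the 35 of the series. All of them share the Cre transgene and 2 intact Ezh2 alleles, so the labelled difference is the mutation alone. SclCre names a Cre recombinase driven by regulatory sequence of Scl (Tal1), a transcription factor gene of blood stem and progenitor cells. The other libraries, 15 with Ezh2 +/- and 10 with Ezh2 -/-, entered the same fit, and those with and without the mutation are used below as a repeat of the comparison. Each library holds RNA from 1000 sorted cells. The labels name neither the animal behind a library nor its age, so p-values here measure the spread between libraries, which may be technical. The JAK2VF libraries are 2 females of batch 1 and 4 males of batch 2. All 4 controls are females, 2 in each batch. Within batch 2 the mutation and the sex of the animal therefore cannot be told apart without the libraries of the other Ezh2 genotypes, from which the term for sex was estimated.

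JAK2 is the kinase that carries the signal of the receptors for erythropoietin, interleukin 3 and related cytokines, and it phosphorylates STAT proteins, which then turn on their target genes. The V617F change lies in the pseudokinase domain, which normally restrains the kinase, and it lets JAK2 signal with little or no cytokine. It is the most common driver of the myeloproliferative neoplasms, blood cancers with too many red cells, platelets or fibrosis of the marrow. The mutation arises in a stem cell. LT-HSCs are quiescent for most of the time.

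Total counts were 20221436 to 36544418 in the JAK2VF libraries and 20022714 to 22293203 in the control libraries. Between 13969 and 15138 genes had counts in a JAK2VF library, and between 14319 and 14812 in a control. Levels are given in CPM, the usual counts scaled to library size, after TMM normalisation. They can be compared between libraries for the same gene, but not between genes, because gene length is not taken into account. Jak2 itself had 48.3 CPM in the lowest, 60.6 CPM at the median and 93.3 CPM in the highest JAK2VF library, and 58.8, 55.1, 45.2 and 60.7 CPM in the controls. The groups overlapped, and the log2 change of 0.39 ± 0.17 (SE) did not pass the test (edgeR adjusted p = 0.223). Counts per gene do not separate mutant from normal Jak2 RNA, so this value does not check the label. Ezh2 ran from 52.1 to 101 CPM in JAK2VF libraries (median 73.5 CPM) and was 48.0, 61.3, 27.8 and 43.2 CPM in controls, a log2 difference of 0.76 ± 0.24 that missed the threshold (edgeR adjusted p = 0.0673).

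Of 14945 genes tested, 631 were called at an edgeR adjusted p under 0.05, or 4.22%. The called genes comprised 358 higher in JAK2VF libraries (2.4% of those tested) and 273 lower (1.83%), and 287 of them differed by more than 1 log2 unit. The median change was 0.84 log2 units among the higher calls and -1.0 among the lower calls, against -0.03 over all genes tested. All 6 JAK2VF libraries lay above all 4 controls for 223 of the 358 higher genes, and below them for 143 of the 273 lower genes. Over all genes tested such a gap was seen for 523 genes upward (3.5%) and 414 downward (2.77%). In every one of the 10 fits that left out 1 library, 207 of the calls were kept, 116 higher and 91 lower. Together with a further list of sex-linked genes, the lists below cover 918 of the genes tested. Without that further list they hold 168 of the calls. The shares of 2.4% higher and 1.83% lower are the background for the counts of calls in each list.

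Many of the rises were genes of the machinery of cell division. Among the 36 gene lists examined, the mitotic kinases and checkpoint proteins (14 of 28 rose, none fell) and the proteins of spindle, kinetochore and cytokinesis (35 of 46 rose, none fell) had the highest median changes. Their medians were 1.79 and 1.68 log2 units. Within batch 1 alone the 2 medians were 1.84 and 1.62, and within batch 2 alone 1.62 and 1.44. In RNA from pooled cells, a larger share of dividing cells and more of these RNAs in each dividing cell cannot be told apart.

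**Figure D1:**
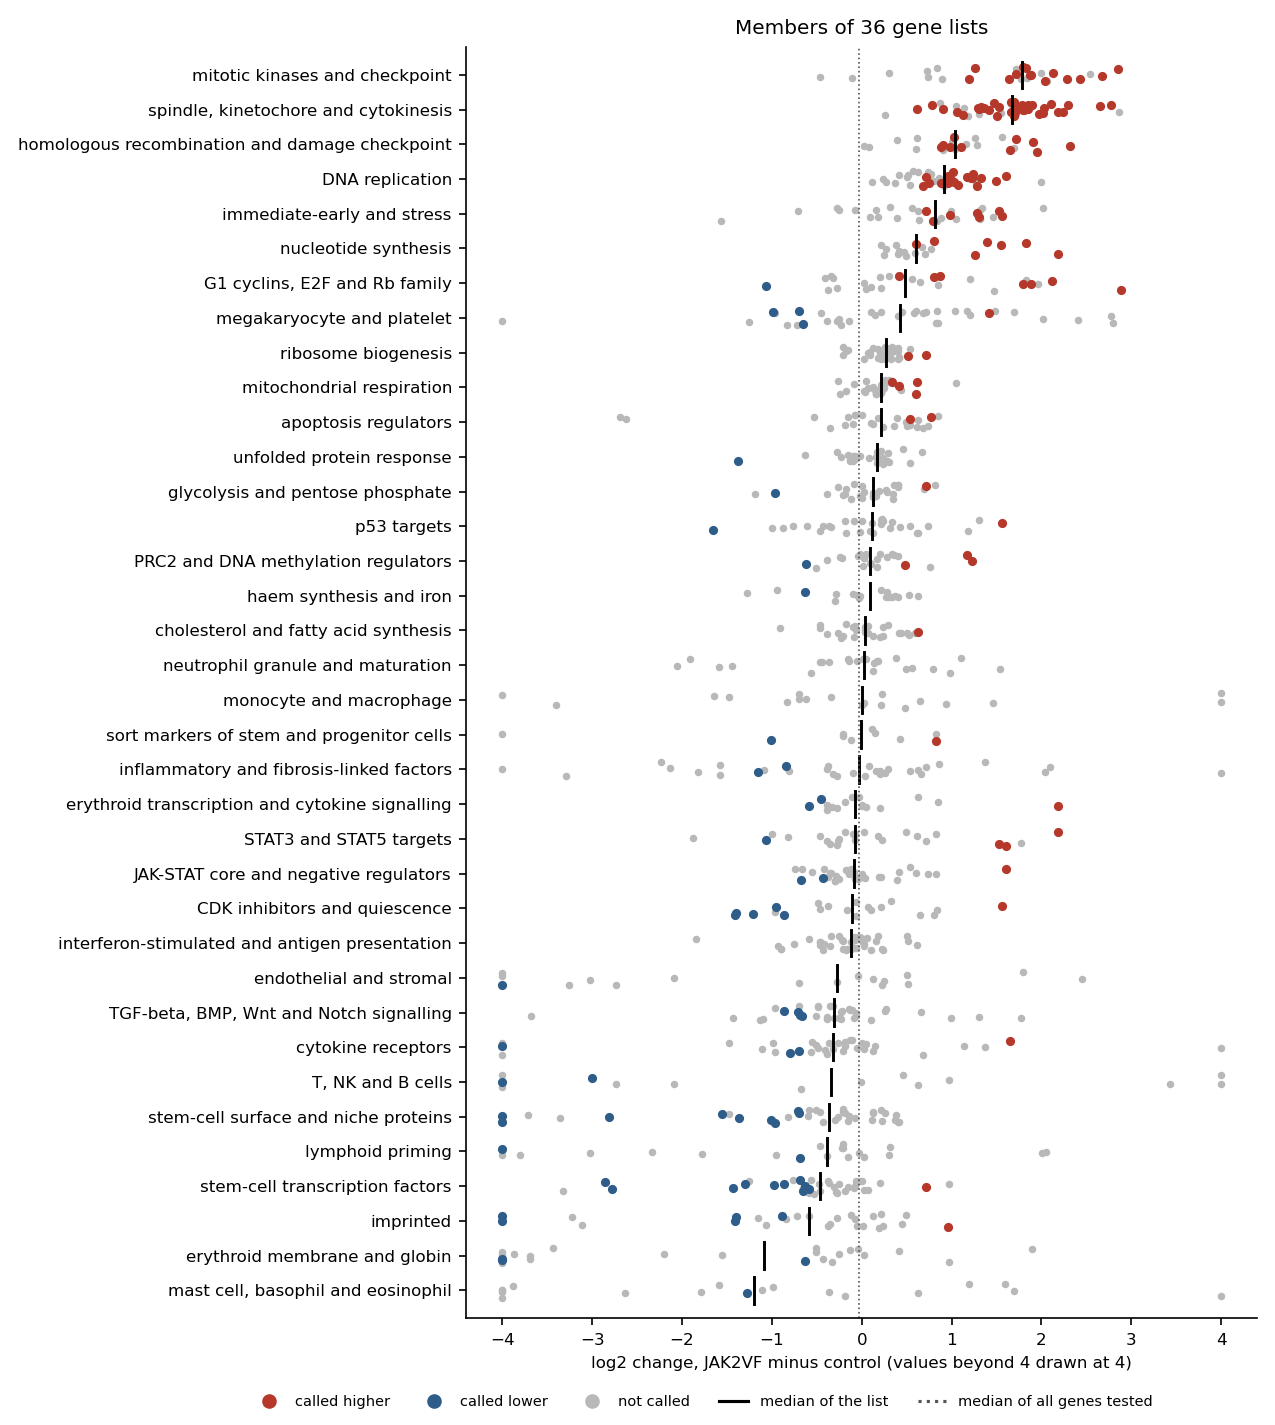
Log2 change (JAK2VF minus control, x axis) of every tested member of 36 gene lists, ordered by the median of the list. Points are genes, red for called higher, blue for called lower and grey for not called, black bars are list medians, and the dotted line is the median of all genes tested at -0.03. The 2 mitosis lists stand at the top with medians of 1.79 and 1.68, and values beyond 4 are drawn at 4.

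Cdk1, the kinase that drives entry into mitosis, had 63.2 CPM in the lowest, 101 CPM at the median and 147 CPM in the highest JAK2VF library, and 23.1, 37.7, 18.3 and 29.5 CPM in the controls. No JAK2VF library came down to the control range, and the change was 1.83 ± 0.29 log2 units (edgeR adjusted p = 0.000245), with 1.93 in batch 1 and 1.7 in batch 2. Among its partners and neighbours in the list, Ccnb1 (cyclin B1), Plk1 (Polo-like kinase), Cdc25c (the phosphatase that activates Cdk1) and Birc5 (survivin, of the chromosomal passenger complex) were also called. Their log2 changes were 1.64, 2.43, 2.85 and 2.28. All 4 of these calls were lost when control batch 1 replicate 1 was left out. The calls of Plk1 and Cdc25c were also lost without control batch 2 replicate 2 and without control batch 2 replicate 4, in that order, and the edgeR adjusted p reached 0.0688 at most over these 4 genes. Aurkb, the kinase of the same passenger complex, had 39.9 to 87.9 CPM in JAK2VF libraries and 6.74 to 25.5 CPM in controls, but its change of 1.72 ± 0.64 did not pass (edgeR adjusted p = 0.132).

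Top2a, the topoisomerase that untangles chromosomes before they separate, showed 214 CPM in the lowest, 335 CPM at the median and 460 CPM in the highest JAK2VF library, and 95.1, 120, 77.9 and 82.9 CPM in controls. Every JAK2VF library was above every control, with a change of 1.97 ± 0.32 log2 units (edgeR adjusted p = 0.000332). Nusap1 and Spc25, which bind spindle microtubules and build the outer kinetochore, rose by 2.24 ± 0.38 and 2.03 ± 0.32 log2 units (edgeR adjusted p = 0.000419 and 0.000233). Ncapg, a condensin subunit, had 29.9 to 100 CPM in JAK2VF libraries and 21, 10.2, 3.90 and 5.53 CPM in controls, a change of 2.77 ± 0.47 (edgeR adjusted p = 0.000523). Ncapg was called in each batch alone, by 2.63 in batch 1 and 2.86 in batch 2 (edgeR adjusted p = 0.0387 and 0.0462). The proliferation marker Mki67 was less separated. It had 84.2 to 312 CPM in JAK2VF libraries and 81.2, 105, 32 and 58.0 CPM in controls, so that 3 of the 6 JAK2VF libraries overlapped the controls, although the gene was called (1.66 ± 0.33, edgeR adjusted p = 0.00247). The change of Smc4, another condensin subunit, was the smallest among the 49 called members of the 2 mitosis lists at 0.61, and that of Cdc25c the largest at 2.85.

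The promoters of these genes were read to see which short motifs they share. The cell cycle homology region (CHR, TTTGAA) is bound by the DREAM and MuvB complexes, which hold back and then activate genes of mitosis, and CCAAT is the site of NF-Y, which often lies close to it. Promoters were the RefSeq windows of build GRCm38.p6, from 250 bases before to 50 bases after the outermost annotated start, searched on both strands. The counts themselves were made on mm9, so the windows are matched by gene and not by position. The 5 mitosis genes with the smallest adjusted p among those with both motifs in the last 120 bases before the start are shown, each on the minus strand of its chromosome, with TTTGAA and CCAAT of either strand in capitals. Cdk1 and Top2a stand at chr10:69352913-69353032 and chr11:99024190-99024309, Kif22 at chr7:127042421-127042540, Ckap2l at chr2:129297213-129297332 and Ckap2 at chr8:22185820-22185939. Pbk and Socs2 are named only.
Cdk1: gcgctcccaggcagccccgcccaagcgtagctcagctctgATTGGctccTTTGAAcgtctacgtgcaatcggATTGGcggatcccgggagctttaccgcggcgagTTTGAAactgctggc
Top2a: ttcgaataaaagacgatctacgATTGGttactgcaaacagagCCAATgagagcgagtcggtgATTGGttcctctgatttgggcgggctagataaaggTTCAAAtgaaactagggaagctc
Kif22: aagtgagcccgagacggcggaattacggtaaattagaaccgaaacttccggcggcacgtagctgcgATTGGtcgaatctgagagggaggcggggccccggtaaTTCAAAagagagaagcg
Ckap2l: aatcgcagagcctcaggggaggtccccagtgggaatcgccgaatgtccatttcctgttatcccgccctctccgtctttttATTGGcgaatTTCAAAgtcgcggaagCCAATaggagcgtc
Ckap2: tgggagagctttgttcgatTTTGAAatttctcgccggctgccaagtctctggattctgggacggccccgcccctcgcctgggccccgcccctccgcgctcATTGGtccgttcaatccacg

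Of the 49 called mitosis genes, 41 had a promoter window, and TTTGAA was found in 29 of them (70.7%), against 18.2% of all 27025 genes with a window and 12.4% of the 11708 of 14945 tested genes that have one. CCAAT was found in 31 of the 41 (75.6%, against 38% of all and 38.6% of those tested), and both motifs in 25 (61%, against 7.16% and 5.18%). Members of the same lists that were not called also held TTTGAA, in 13 of 22 windows (59.1%). With only the 250 bases before the start, TTTGAA was in 16 of the 41 (39%, against 16.3% of all and 11.1% of those tested), so many of the matches lie within the first bases after the annotated start. The STAT motif TTCNNNGAA occurred in 1 of the 41 (2.44%, against 8.42% of all and 6.9% of those tested), and the motif bound by factors such as Gata1, AGATAA, in 3 (7.32%, against 11.4% and 6.85%). A match is a string of letters and not a shown binding site. No motif overlaps another in the printed stretches.

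In the DNA replication list 18 of 39 genes rose and none fell (median 0.92), and in the nucleotide synthesis list 7 of 19 rose and none fell (median 0.6). Mcm6, a subunit of the helicase that opens replication origins, had 496 CPM in the lowest, 546 CPM at the median and 623 CPM in the highest JAK2VF library, and 268, 289, 256 and 301 CPM in the controls. Both groups were tight and far apart, and the change was 0.96 ± 0.17 log2 units (edgeR adjusted p = 0.001). Mcm5, of the same ring, rose by 1.28 ± 0.26 (edgeR adjusted p = 0.00323). The E2F motifs TTTGGCGC and TTTCCCGC, sites of the factors that turn on S phase genes, were in 5 of the 20 windows of called S phase genes (25%), in 7 of the 30 windows of those not called (23.3%) in 1.63% of all genes with a window and in 2.95% of the tested genes with one. TTTGAA was in 4 of these 20 (20%) and CCAAT in 14 (70%). The STAT motif TTCNNNGAA was in 4 of the 20 (20%) and in 1 of the 30 not called (3.33%). Its share was 8.42% of all genes with a window and 6.9% of the tested genes with one. The last 120 bases before the start of Mcm6, at chr1:128359706-128359825 on the minus strand, are shown as the only called S phase promoter with an E2F motif in that stretch, with TTTGGCGC and CCAAT of either strand in capitals.
Mcm6: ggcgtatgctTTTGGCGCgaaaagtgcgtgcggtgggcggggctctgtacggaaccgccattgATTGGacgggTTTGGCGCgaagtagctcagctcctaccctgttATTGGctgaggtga

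Rrm2, the regulated subunit of the ribonucleotide reductase that makes deoxynucleotides, had 96.8 CPM in the lowest, 170 CPM at the median and 291 CPM in the highest JAK2VF library, and 48.3, 59.9, 31 and 32.1 CPM in controls. The groups did not overlap, and the change was 1.83 ± 0.36 log2 units (edgeR adjusted p = 0.00266). Its partner subunit Rrm1 rose by 1.26 ± 0.25 (edgeR adjusted p = 0.00218), with 253 to 499 CPM in JAK2VF libraries against 110 to 195 CPM in controls. The homologous recombination and damage checkpoint list had 10 of 23 genes higher and none lower (median 1.04). Chek1, the kinase that halts stalled replication, had 17.7 to 57.8 CPM in JAK2VF libraries and 16, 18.3, 16.6 and 4.34 CPM in controls. One of its JAK2VF libraries fell inside the control range (1.65 ± 0.39, edgeR adjusted p = 0.0118). Fignl1, which acts in homologous recombination, had 56.2 to 138 CPM in JAK2VF libraries and 19.2, 40.7, 1.95 and 11.1 CPM in controls (2.38 ± 0.53, edgeR adjusted p = 0.00735).

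The genes that set the start of the cycle were mixed. In the list of G1 cyclins, E2F and Rb family genes 7 of 26 rose and 1 fell (median 0.49). Ccne2, the cyclin E that opens S phase, had 27.1 CPM in the lowest, 41.3 CPM at the median and 76.7 CPM in the highest JAK2VF library, and 18.7, 20.02, 6.41 and 12.3 CPM in controls. All 6 JAK2VF libraries were above all controls, with a change of 1.88 ± 0.30 (edgeR adjusted p = 0.000257). E2f8, an E2F family member that represses, rose by 2.89 ± 0.60 (edgeR adjusted p = 0.00351). Ccnd1, cyclin D1, a classic target of growth signals, went the other way. It had 17.5 to 33.9 CPM in JAK2VF libraries and 58.1, 52.0, 41.6 and 38.4 CPM in controls, a change of -1.07 ± 0.26 (edgeR adjusted p = 0.0127). Of the other rises, E2f1 and its partner Tfdp1 changed by 1.80 and 0.80, E2f7, a second repressing E2F, by 2.12, the Rb relative Rbl1 by 0.87 and the G1 kinase Cdk4 by 0.41 log2 units, each lost in 3 to 6 of the 10 fits without 1 library (highest edgeR adjusted p = 0.168, for Tfdp1). The call of Ccnd1 was lost without control batch 1 replicate 1 and without JAK2VF batch 1 replicate 1 (edgeR adjusted p up to 0.0583).

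The brakes of the cycle also split. Of 20 tested CDK inhibitor and quiescence genes 5 fell and 1 rose (median -0.11), against 1.83% and 2.4% over all genes tested. Cdkn1c, which encodes the CDK inhibitor p57 that holds stem cells at rest, had 6.55 CPM in the lowest, 9.40 CPM at the median and 13.4 CPM in the highest JAK2VF library, and 27.1, 19.5, 36 and 20.1 CPM in controls. Every JAK2VF library was below every control, and the change was -1.41 ± 0.29 (edgeR adjusted p = 0.0029), with -1.74 in batch 1 and -1.19 in batch 2. Ndn, which encodes necdin, a growth suppressor of quiescent stem cells, had 32.3 to 64.9 CPM in JAK2VF libraries (median 55.3 CPM) and 109, 92.2, 148 and 122 CPM in controls. Its change of -1.40 ± 0.14 had the smallest p in the list (edgeR adjusted p = 2.28e-07), and Ndn was called in each batch alone. Smad3, which carries TGF-beta signals to the nucleus, was lower, with a log2 change of -0.86 (edgeR adjusted p = 0.00582). The change of Smad3 was -0.39 in batch 1 alone and -1.19 in batch 2 alone (edgeR adjusted p = 0.608 and 0.023). In females alone Smad3 was not called either (-0.7, edgeR adjusted p = 0.183). Btg2, an anti-proliferative gene that is also an immediate-early gene, rose instead, with 736 to 2425 CPM in JAK2VF libraries against 165 to 659 CPM in controls (1.56 ± 0.35, edgeR adjusted p = 0.00966). The other 2 calls, both lower, were Foxo1 and Txnip. The change of Txnip was -1.89 in batch 1 alone and -0.24 in batch 2 alone (edgeR adjusted p = 0.0126 and 0.877). Its call was lost without control batch 1 replicate 2 (edgeR adjusted p = 0.0731). That of Foxo1 was lost without control batch 1 replicate 1, JAK2VF batch 1 replicate 1, control batch 2 replicate 2 or control batch 2 replicate 4 (edgeR adjusted p up to 0.108). The p21, p27 and other CDK inhibitor genes of the list were not called, and of these Cdkn1b came nearest (-0.49, edgeR adjusted p = 0.059).

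**Figure D2:**
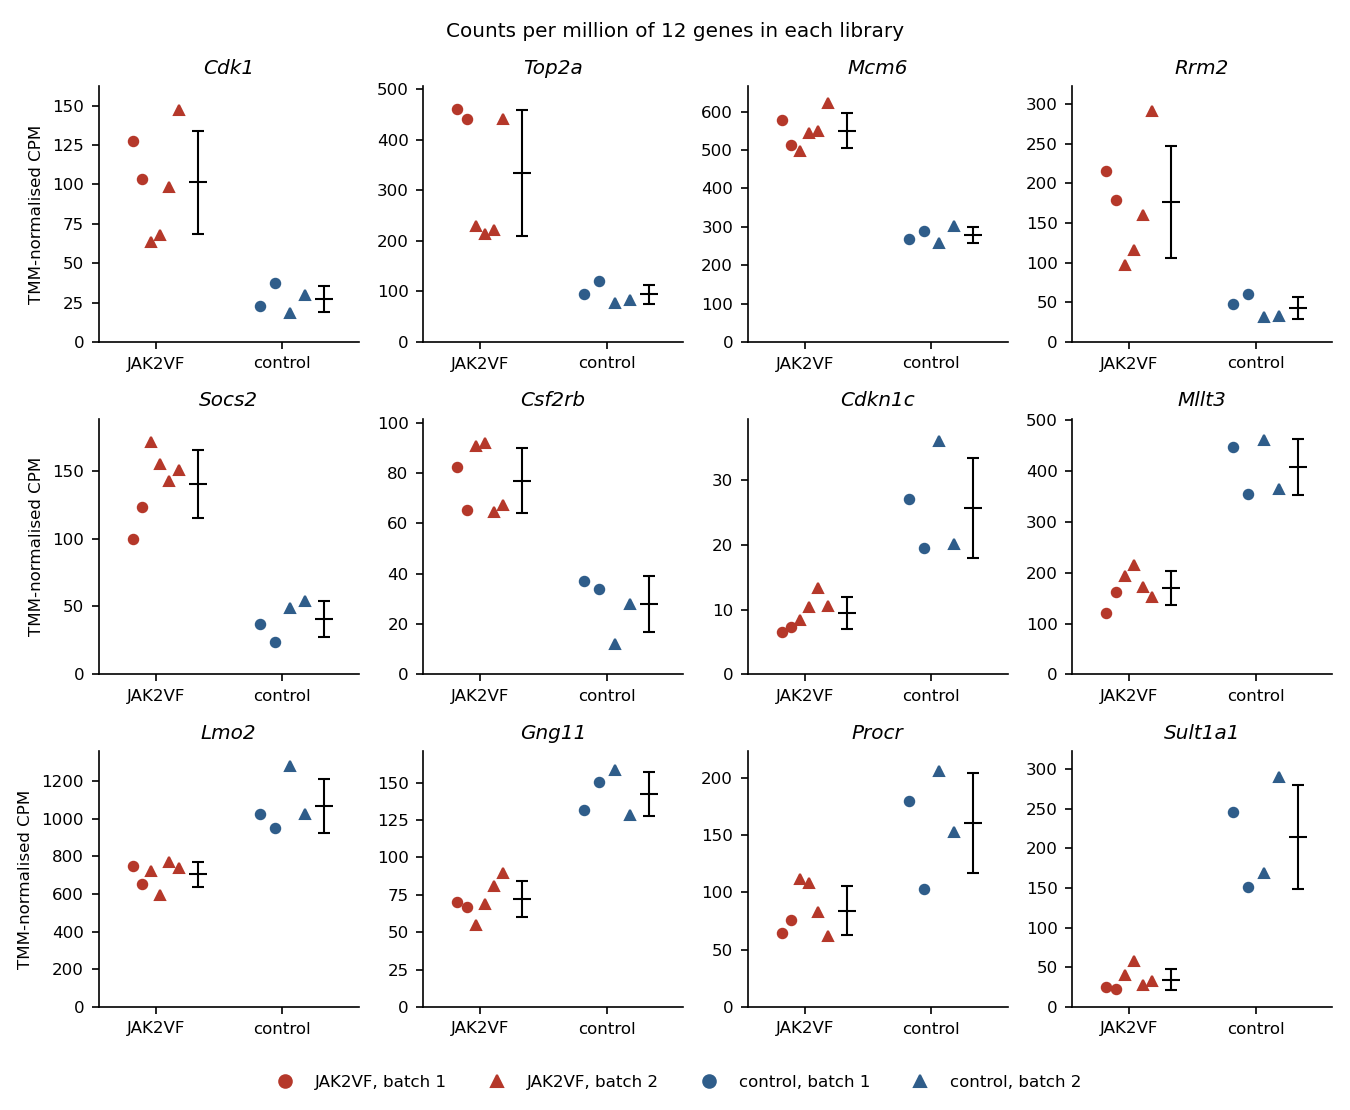
TMM-normalised CPM (y axis, from 0) of 12 genes in each library, JAK2VF on the left and control on the right of each panel. Circles are batch 1 and triangles batch 2, and the black bars give the mean and SD of the 6 JAK2VF and 4 control libraries. In the Cdk1 panel the JAK2VF libraries lie between 63.2 and 147 CPM, all above the controls, and in the Sult1a1 panel they lie between 22.1 and 57.8 CPM, all below them.

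The calls among genes that mark and maintain the stem cell state were nearly all lower. Among 37 stem cell transcription factors 10 fell and 1 rose (median -0.46), and 32 of the 37 changes were negative. Their summed level was 7190 to 8090 CPM in JAK2VF libraries and 8160 to 9360 CPM in controls, so that the sums did not overlap. Mllt3, a regulator of stem cell maintenance, had 120 CPM in the lowest, 167 CPM at the median and 216 CPM in the highest JAK2VF library, and 447, 355, 461 and 365 CPM in controls. The gap held in every library, and the change was -1.30 ± 0.16 (edgeR adjusted p = 5.91e-06), with -1.5 in batch 1 and -1.13 in batch 2, each called alone (edgeR adjusted p = 0.0241 and 0.023). Lmo2, a bridge in the Scl complex, had 594 to 771 CPM in JAK2VF libraries and 1023, 950, 1277 and 1022 CPM in controls (-0.59 ± 0.12, edgeR adjusted p = 0.00323).

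Runx1t1, which encodes the corepressor ETO, had 1.63 to 11.2 CPM in JAK2VF libraries and 68.2, 29.9, 55.0 and 44.5 CPM in controls (-2.86 ± 0.38, edgeR adjusted p = 2.3e-05). Nkx2-3, a homeobox gene, was lower, with a log2 change of -1.43 (edgeR adjusted p = 0.00846). Hlf, a stem cell factor with a basic leucine zipper, had 253 to 382 CPM in JAK2VF libraries and 646, 608, 558 and 449 CPM in controls, without overlap (-0.69 ± 0.18, edgeR adjusted p = 0.0216). Mecom, the gene of the self-renewal factor EVI1, was called with overlap, at 95.1 to 194 CPM in JAK2VF libraries against 238, 147, 237 and 221 CPM in controls (-0.63 ± 0.17, edgeR adjusted p = 0.0293). The call of Hlf was lost without control batch 1 replicate 1, control batch 1 replicate 2, JAK2VF batch 1 replicate 1 or control batch 2 replicate 2 (edgeR adjusted p up to 0.0923). That of Mecom was lost without any 1 of 5 of the 10 libraries (edgeR adjusted p up to 0.134). The single rise in the list was that of Egr1, which is also an immediate-early gene and is described with those.

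Among 36 stem cell surface and niche proteins 9 fell and none rose (median -0.36). Sult1a1, a sulfotransferase gene that is high in LT-HSCs, had 22.1 CPM in the lowest, 29.97 CPM at the median and 57.8 CPM in the highest JAK2VF library, and 246, 151, 169 and 290 CPM in controls. The highest JAK2VF library was still far below the lowest control, and the change was -2.81 ± 0.43 (edgeR adjusted p = 0.000245). Alcam (CD166), an adhesion protein, had 18.6 to 30.1 CPM in JAK2VF libraries against 58.6 to 91.7 CPM in controls (-1.37 ± 0.23, edgeR adjusted p = 0.000483). Jam2, a junction protein, was lower, with a log2 change of -1.56 (edgeR adjusted p = 0.0041). Cyp26b1, which breaks down retinoic acid and marks dormant stem cells, had 3.38, 0.00, 0.516, 0.292, 0.00 and 0.230 CPM in JAK2VF libraries and 24.6, 6.17, 9.02 and 16.1 CPM in controls (-4.16 ± 0.88, edgeR adjusted p = 0.00449). Ramp2, an accessory protein of the adrenomedullin receptor, was listed at 0 in 3 JAK2VF libraries and reached 1.06 CPM at most, against 8.32 to 29.3 CPM in controls (-6.27 ± 1.02, edgeR adjusted p = 0.000296). The low levels of Cyp26b1 rest on 112 counts over the JAK2VF libraries and 1213 over the controls.

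Of the 10 antigens used to sort stem and progenitor cells, 1 rose and 1 fell, against 2.4% and 1.83% over all genes tested. Procr (EPCR), a defining LT-HSC antigen, had 61.8 CPM in the lowest, 79.3 CPM at the median and 112 CPM in the highest JAK2VF library, and 180, 103, 206 and 153 CPM in controls. Only 4 of the 6 JAK2VF libraries were below every control, and the change was -1.01 ± 0.21 (edgeR adjusted p = 0.00328). Cd34, low on LT-HSCs and higher on the progenitors that follow them, had 299 to 523 CPM in JAK2VF libraries and 173, 239, 219 and 188 CPM in controls, without overlap (0.83 ± 0.21, edgeR adjusted p = 0.0192). The call of Cd34 was lost without control batch 1 replicate 1 and without control batch 2 replicate 4 (edgeR adjusted p up to 0.0733). Kit and Ly6a (Sca-1) did not pass, with changes of 0.15 ± 0.20 and -0.21 ± 0.17 (edgeR adjusted p = 0.775 and 0.585). Slamf1 (CD150) had 55.2 to 84.7 CPM in JAK2VF libraries and 39.8 to 82.2 CPM in controls, overlapping (0.11 ± 0.21, edgeR adjusted p = 0.855). Its sign and that of Cd48 depended on the libraries used. Cd48, which LT-HSCs lack, had 0.344 to 19.8 CPM in JAK2VF libraries and 5.48, 6.84, 0.00 and 6.42 CPM in controls (edgeR adjusted p = 0.92). RNA of Kit, Ly6a, Slamf1 and Procr was present in all 10 libraries, and that of Cd48 in all but 1 control.

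Of 33 core genes and negative regulators of the JAK-STAT pathway 1 rose and 2 fell (median -0.09), and of 26 STAT3 and STAT5 targets 3 rose and 1 fell (median -0.08), against 4.22% called over all genes tested. The target median was 0.03 without a term for sex, -0.12 in batch 1 alone and 0.51 in batch 2 alone. Socs2, a feedback inhibitor induced by STAT5, had 99.9 CPM in the lowest, 146 CPM at the median and 171 CPM in the highest JAK2VF library, and 37.1, 24.2, 48.61 and 54.4 CPM in controls. The groups were well apart, with a change of 1.61 ± 0.25 (edgeR adjusted p = 0.000168), 1.86 in batch 1 and 1.43 in batch 2. Cish, the other feedback gene most tied to STAT5, had 132, 191, 399, 288, 338 and 326 CPM in JAK2VF libraries and 144, 104, 124 and 164 CPM in controls. Here 5 of the 6 JAK2VF libraries were above every control, but the change of 0.83 ± 0.27 missed the threshold (edgeR adjusted p = 0.0715). Cish was called within batch 2 alone (1.36, edgeR adjusted p = 0.0258) and was at 0.38 within batch 1 (edgeR adjusted p = 0.802), where the libraries of both groups are female. Jak3, the kinase of lymphoid cytokine receptors, was lower, at 72.7 to 151 CPM in JAK2VF libraries and 183 to 194 CPM in controls (-0.68 ± 0.17, edgeR adjusted p = 0.0159). It was not called without control batch 1 replicate 1, JAK2VF batch 1 replicate 1 or JAK2VF batch 1 replicate 2 (edgeR adjusted p up to 0.0894). Ptpn1, a phosphatase of JAK2, was called at the margin (-0.43 ± 0.13, edgeR adjusted p = 0.0458) and lost its call without any 1 of 8 of the 10 libraries (edgeR adjusted p up to 0.138).

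Cytokine receptors had 1 gene higher and 3 lower of 35 tested (median -0.32), against 2.4% higher and 1.83% lower over all genes tested. Csf2rb, the common beta chain of the receptors for interleukin 3, interleukin 5 and GM-CSF, had 64.3 CPM in the lowest, 74.9 CPM at the median and 92.1 CPM in the highest JAK2VF library, and 37.2, 34, 12.2 and 28.2 CPM in controls. Every JAK2VF library was above every control (1.65 ± 0.26, edgeR adjusted p = 0.000245). Il21r was called lower with overlapping groups (-0.80 ± 0.24, edgeR adjusted p = 0.0466) and lost its call without any 1 of 8 of the 10 libraries (edgeR adjusted p up to 0.146). The call of Il1rl1, the receptor of interleukin 33, rests on 68 counts in control batch 1 replicate 1. No count was seen in the other controls or in any JAK2VF library. Without that library the fitted change of Il1rl1 was 1.11 and was not called, and the call was also lost without any 1 of the 6 JAK2VF libraries (edgeR adjusted p up to 1).

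Podxl, a sialomucin gene in the STAT target list, had 15.1 to 70.3 CPM in JAK2VF libraries (median 25.6 CPM) and 9.24, 4.15, 2.14 and 14.5 CPM in controls (2.18 ± 0.51, edgeR adjusted p = 0.00958). The highest value, that of JAK2VF batch 1 replicate 2, stood apart, and without that library the call of Podxl was lost (edgeR adjusted p = 0.0554). The immediate-early list had 7 of 30 genes higher and none lower (median 0.82), against 2.4% called higher over all genes tested. Its medians within batch 1 and batch 2 were 0.95 and 0.76. Immediate-early genes respond within minutes to signals, and also to the handling of cells. Zfp36, which destabilises cytokine mRNAs, had 2608 CPM in the lowest, 5362 CPM at the median and 8781 CPM in the highest JAK2VF library, and 1870, 1001, 2047 and 2310 CPM in controls (1.31 ± 0.28, edgeR adjusted p = 0.0065). Ier3, a survival gene, rose by 0.98 ± 0.23 (edgeR adjusted p = 0.00948), with 1 JAK2VF library inside the control range. Fos had 3558 to 10450 CPM in JAK2VF libraries and 910 to 2719 CPM in controls, without overlap (1.53 ± 0.40, edgeR adjusted p = 0.0246). Egr1 had 1256 to 1955 CPM against 720 to 1110 CPM, also without overlap (0.72 ± 0.20, edgeR adjusted p = 0.0271). Both calls were lost without control batch 1 replicate 2, JAK2VF batch 1 replicate 2 or control batch 2 replicate 2. That of Fos was also lost without control batch 2 replicate 4, and that of Egr1 without control batch 1 replicate 1 (edgeR adjusted p up to 0.119 over both genes). The part of cell handling in these differences was not tested.

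Gata1, the master factor of red cells and platelets, had 39.5 CPM in the lowest, 62.4 CPM at the median and 133 CPM in the highest JAK2VF library, and 20.2, 33.5, 6.14 and 23 CPM in controls. All 6 JAK2VF libraries were above all controls (2.18 ± 0.50, edgeR adjusted p = 0.00854). It was the only rise among 16 erythroid transcription and signalling genes, where Lmo2 and Cbfa2t3 (ETO2, a corepressor of the Scl complex) fell, and the change of Cbfa2t3 was -0.45 ± 0.10 (edgeR adjusted p = 0.00823). In the erythroid membrane and globin list 3 of 24 fell and none rose (median -1.09), against 1.83% called lower over all genes tested. With Ezh2 +/- 11 fell and none rose (median -1.28), and with Ezh2 -/- 1 fell and 3 rose (median -0.41). Of the 3 calls here 2 are Hba-a1 and Hba-a2, which have identical counts, cannot be told apart and are a single measurement. They had 0.00, 0.0984, 0.00, 0.00, 32.4 and 11.1 CPM in JAK2VF libraries and 34.6, 4.72, 72.8 and 2.26 CPM in controls. This globin call (edgeR adjusted p = 0.049) was lost without any 1 of 7 of the 10 libraries (edgeR adjusted p up to 0.194). The third lower gene was Epb41, a protein of the red cell membrane skeleton (-0.63), and its call was lost without control batch 1 replicate 1 (edgeR adjusted p = 0.087). In the haem and iron list Blvrb was the 1 lower gene of 18 (-0.63), against 1.83% called lower over all genes tested. Its call was lost without JAK2VF batch 1 replicate 1 (edgeR adjusted p = 0.0544).

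In the megakaryocyte and platelet list 1 of 36 genes rose and 3 fell, while the median of the list was 0.42. The shares called over all genes tested were 2.4% higher and 1.83% lower. Gng11, a G protein subunit, had 55.0 to 89.9 CPM in JAK2VF libraries and 132, 151, 159 and 128 CPM in controls, without overlap (-0.99 ± 0.16, edgeR adjusted p = 0.000245). Nrgn (neurogranin) was lower by a log2 difference of -0.65 ± 0.14 (edgeR adjusted p = 0.00537). F2r, the thrombin receptor, was the rise, at 227 to 370 CPM in JAK2VF libraries against 89.8 to 141 CPM in controls (1.42 ± 0.40, edgeR adjusted p = 0.0379), but it lost its call without any 1 of 6 of the 10 libraries (edgeR adjusted p up to 0.123). Pf4, a platelet chemokine, shows how uneven these genes were. It had 499 and 342 CPM in the JAK2VF libraries of batch 1, 20.4, 105, 108 and 283 CPM in those of batch 2, and 43.8, 51.8, 58.2 and 46.7 CPM in controls (2.78 ± 0.93, edgeR adjusted p = 0.0871).

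RNA of mature cells that could enter such a sort was measured too. None of 24 neutrophil genes (median 0.03) and none of 19 monocyte genes was called. The neutrophil median was 0.58 without a term for sex, where 19 of the 24 changes were positive. It was 0.39 in batch 1 alone, 0.06 in batch 2 alone and 0.4 in females alone. With Ezh2 +/- it was 0.75 and with Ezh2 -/- 1.22. The summed neutrophil level was 7670, 4600, 2670, 7460, 10600 and 21100 CPM in the JAK2VF libraries (batch 1 replicates 1 and 2, then batch 2 replicates 1 to 4), and 5620, 3800, 9400 and 3270 CPM in controls. It overlapped widely. The library lowest in this sum, JAK2VF batch 2 replicate 1, also had the lowest mitotic kinase sum of the JAK2VF libraries, 1050 CPM. Over that list the controls had 696, 800, 611 and 659 CPM, in the order above. JAK2VF batch 2 replicates 1 to 4 had 1050, 1170, 1550 and 2250 CPM, rising in the same order as their neutrophil sums. JAK2VF batch 1 replicates 1 and 2 had 2100 and 1750 CPM. JAK2VF batch 2 replicate 4 was highest in both sums, with 2250 CPM for the mitotic kinases. The part of neutrophil RNA in the mitotic result was not tested. Of the lymphoid priming list 2 of 21 fell (Notch1 and Ikzf3), and of T, NK and B cell genes 2 of 14. Of mast cell, basophil and eosinophil genes 1 of 18 fell (Fcer1g, lost without any 1 of 7 of the 10 libraries). Of endothelial and stromal genes 1 of 17 fell. None rose in these lists, and over all genes tested 2.4% were called higher and 1.83% lower. Klrb1c (NK1.1) had 0.0857 to 12.1 CPM in JAK2VF libraries and 39.0 to 91.4 CPM in controls (-3.0 ± 0.58, edgeR adjusted p = 0.00218). Ms4a1 (CD20) had 1 count over the JAK2VF libraries and 233 counts in 3 of the 4 controls. The call of Ms4a1 was lost without control batch 1 replicate 2 (edgeR adjusted p = 0.207). Ikzf3 rests on 81 counts in that single control library, and its call was lost without it, without JAK2VF batch 1 replicate 1 or without JAK2VF batch 2 replicate 4 (edgeR adjusted p up to 1). Cldn5, claudin 5 of endothelial cells, had 1 count over the 6 JAK2VF libraries and 1034 over the 4 controls, where it reached 6.52, 7.28, 19.3 and 13.99 CPM. The control to JAK2VF ratio of Cldn5 was 2.18e+03, with a 95% interval of 391 to 8.63e+04 that covers counting error only (edgeR adjusted p = 0.0003). No other gene of the endothelial list was called.

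**Figure D3:**
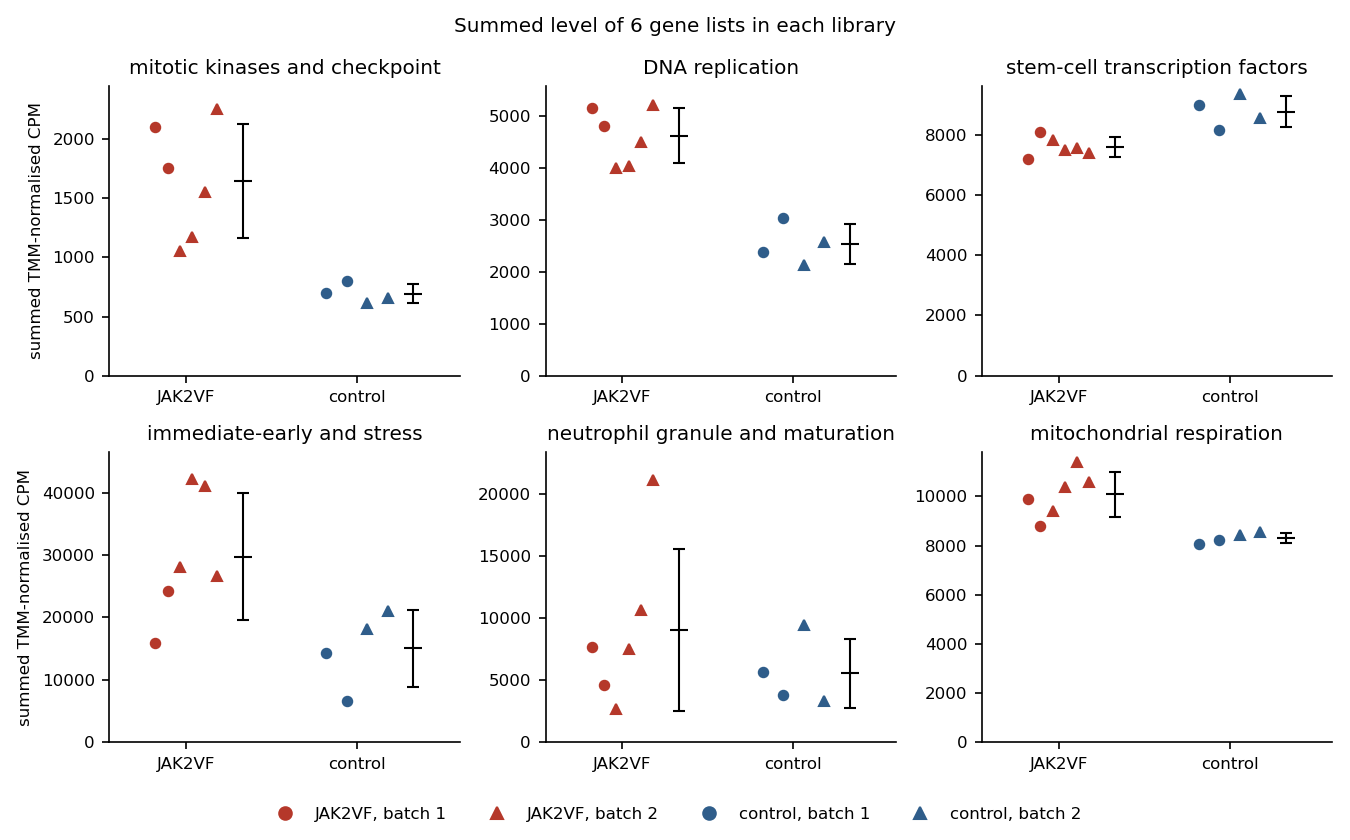
Summed TMM-normalised CPM (y axis, from 0) of 6 gene lists in each library, JAK2VF on the left and control on the right of each panel. Circles are batch 1 and triangles batch 2, and black bars give mean and SD (6 JAK2VF and 4 control libraries). The mitotic kinase sums are 1050 to 2250 CPM in JAK2VF libraries and 611 to 800 CPM in controls, while the neutrophil sums overlap (2670 to 21100 against 3270 to 9400 CPM).

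In the mitochondrial respiration list 4 of 37 genes rose and none fell (median 0.22), and 33 of the 37 changes were positive. The summed level was 8810 to 11400 CPM in JAK2VF libraries and 8080 to 8560 CPM in controls, without overlap. Idh3a, a subunit of isocitrate dehydrogenase in the citric acid cycle, had 217 to 362 CPM in JAK2VF libraries and 149 to 211 CPM in controls (0.60 ± 0.15, edgeR adjusted p = 0.0172). Idh3a was not called without JAK2VF batch 1 replicate 1 or without control batch 2 replicate 2 (edgeR adjusted p up to 0.0857). The calls of Fh1 and Ndufa9, with changes of 0.62 and 0.41, were lost without any 1 of 9 and of 8 of the 10 libraries (edgeR adjusted p up to 0.146 over both genes). Npm1, the nucleolar chaperone of ribosome assembly, was higher at 565 CPM in the lowest, 764 CPM at the median and 818 CPM in the highest JAK2VF library, against 400, 366, 574 and 510 CPM in controls. A single JAK2VF library reached the control range, and the change was 0.72 ± 0.12 (edgeR adjusted p = 0.000245). With Dkc1, the pseudouridine synthase (0.51 ± 0.11, edgeR adjusted p = 0.00494), it made up the 2 rises among 36 ribosome biogenesis genes (median 0.27). Over all genes tested 2.4% were called higher and 1.83% lower. Trib3, a stress-induced pseudokinase, was the 1 call among 28 genes of the unfolded protein response and was lower, at -1.38 ± 0.29 (edgeR adjusted p = 0.00323). With the compared groups only and no term for sex it was not called (-0.95, edgeR adjusted p = 0.102). The change of Trib3 was -2.0 in batch 1 alone and -0.58 in batch 2 alone (edgeR adjusted p = 0.049 and 0.619).

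In glycolysis 1 of 30 genes rose (Tkt, transketolase of the pentose phosphate pathway, 0.71 ± 0.17) and 1 fell (Hk2, hexokinase 2, -0.96 ± 0.23). Hk2 had 52.0 to 92.6 CPM in JAK2VF libraries and 121, 104, 225 and 164 CPM in controls. Tkt changed by 1.14 in batch 1 alone and by 0.22 in batch 2 alone (edgeR adjusted p = 0.0525 and 0.699). The call of Hk2 was lost without control batch 2 replicate 2, and that of Tkt without control batch 1 replicate 1, control batch 1 replicate 2 or JAK2VF batch 1 replicate 1 (edgeR adjusted p up to 0.0938 over both genes). In the cholesterol and fatty acid list 1 of 28 rose, and among apoptosis regulators 2 of 26 rose. Among p53 targets 1 of 31 rose and 1 fell. Over all genes tested 2.4% were called higher and 1.83% lower. None of 41 interferon-stimulated and antigen presentation genes was called (median -0.12), and inflammatory and fibrosis-linked factors had 2 of 32 lower, Lgals1 and Ccl4, the second lost without any 1 of 7 of the 10 libraries (edgeR adjusted p up to 0.185).

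Regulators of DNA methylation and Polycomb had 3 of 24 genes higher and 1 lower (median 0.10), against 2.4% and 1.83% over all. Dnmt1, the maintenance methyltransferase that works at the replication fork, had 250 CPM in the lowest, 311 CPM at the median and 448 CPM in the highest JAK2VF library, and 140, 191, 121 and 152 CPM in controls (1.23 ± 0.25, edgeR adjusted p = 0.00323). The groups did not overlap. Its recruiter Uhrf1 rose by 1.17 ± 0.27 (edgeR adjusted p = 0.00908), a call lost without control batch 1 replicate 1 (edgeR adjusted p = 0.0559). Both are also in the replication list. Dnmt3a, a de novo methyltransferase, was the third (0.48 ± 0.12, edgeR adjusted p = 0.0183), lost without control batch 1 replicate 1 and without control batch 2 replicate 2 (edgeR adjusted p up to 0.0846). Ezh1, the second H3K27 methyltransferase of PRC2 beside Ezh2, had 54.0 to 101 CPM in JAK2VF libraries and 120, 112, 101 and 105 CPM in controls (-0.62 ± 0.18, edgeR adjusted p = 0.0407). The call of Ezh1 was lost without any 1 of 8 of the 10 libraries (edgeR adjusted p up to 0.137).

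Imprinted genes, many of which restrain growth and are active in quiescent stem cells, had 5 of 29 lower and 1 higher (median -0.59). The shares called over all genes tested were 1.83% lower and 2.4% higher. Meg3, a maternally expressed long non-coding RNA, had 1.16, 0.0984, 0.290, 0.746, 0.147 and 0.115 CPM in JAK2VF libraries and 33.6, 15.7, 16.8 and 33.1 CPM in controls. The total was 70 counts in JAK2VF libraries against 2170 in controls (-5.55 ± 0.85, edgeR adjusted p = 0.000233). Rian, from the same Dlk1-Gtl2 cluster, had no count in any JAK2VF library and at most 3.10 CPM in a control. Without JAK2VF batch 1 replicate 1 it was not called (edgeR adjusted p = 0.0507). Igf2r, which clears the growth factor IGF2, had 14.1 to 26.2 CPM in JAK2VF libraries against 30.6 to 43.7 CPM in controls (-0.89 ± 0.17, edgeR adjusted p = 0.00218). Cdkn1c and Ndn, described above, are the other 2 imprinted genes that fell. Gatm, which makes the precursor of creatine, rose by 0.96 ± 0.21 (edgeR adjusted p = 0.00498).

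TGF-beta and Notch are among the signals known to hold stem cells at rest. In the TGF-beta, BMP, Wnt and Notch list 4 of 35 genes fell and none rose, against 1.83% called lower over all genes tested. The median of this list was -0.31, with -0.1 in batch 1 and -0.3 in batch 2. Eng (endoglin), a TGF-beta co-receptor, had 157 to 310 CPM in JAK2VF libraries and 297, 277, 425 and 365 CPM in controls. Here 3 of the 6 JAK2VF libraries were below every control (-0.66 ± 0.14, edgeR adjusted p = 0.00326). Smad3, which was not called in batch 1 alone or in females alone, was the second. The other 2 calls were lost in fits without 1 library, that of Notch1 without control batch 1 replicate 1, control batch 1 replicate 2, JAK2VF batch 1 replicate 2 or control batch 2 replicate 4 (edgeR adjusted p up to 0.115), and that of Ltbp3 without any 1 of the 10 libraries (edgeR adjusted p up to 0.155).

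Several of the largest changes lay outside the lists. Tns2 (tensin 2), which links integrins to actin, had 0.428 CPM in the lowest, 8.91 CPM at the median and 10.5 CPM in the highest JAK2VF library, and 98.7, 58.9, 74.0 and 64.8 CPM in controls. Even the highest JAK2VF library was far below the lowest control (-3.42 ± 0.43, edgeR adjusted p = 7.48e-06), and the gene was called in each batch alone. Smtnl1, a gene of smooth muscle regulation, had 0.471 to 8.69 CPM in JAK2VF libraries against 14.6 to 57.3 CPM in controls (-3.47 ± 0.62, edgeR adjusted p = 0.000921). Trib2, a pseudokinase, had 1.77 to 9.58 CPM in JAK2VF libraries and 30.2, 37.1, 22.8 and 31.8 CPM in controls (-2.41 ± 0.45, edgeR adjusted p = 0.00145). The change of Trib2 was -3.92 in batch 1 alone and -1.2 in batch 2 alone (edgeR adjusted p = 0.0218 and 0.363). Hif3a, a relative of the hypoxia factors, and Foxa3, a forkhead factor gene, were lower, with log2 changes of -2.07 and -2.01 (by edgeR, adjusted p = 0.00291 and 0.000483). Upward, Akr1c12, an aldo-keto reductase with close relatives whose reads may be shared, had 4.28 to 14.3 CPM in JAK2VF libraries and 1.71, 1.63, 2.46 and 1.33 CPM in controls (2.46 ± 0.45, edgeR adjusted p = 0.00103). Shcbp1, a gene linked to proliferation, rose by 2.24 ± 0.52 (edgeR adjusted p = 0.0088).

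Some further genes were singled out after their values were seen. Pik3r1, the regulatory subunit of PI3 kinase, had 112 CPM in the lowest, 147 CPM at the median and 166 CPM in the highest JAK2VF library, and 367, 277, 327 and 348 CPM in controls (-1.26 ± 0.16, edgeR adjusted p = 7.48e-06). Anp32e, a chaperone that removes the histone variant H2A.Z, had 424 to 595 CPM in JAK2VF libraries and 218, 216, 258 and 230 CPM in controls (1.17 ± 0.17, edgeR adjusted p = 7.34e-05). Apoe, which encodes apolipoprotein E, had 209 to 407 CPM in JAK2VF libraries against 530 to 604 CPM in controls (-1.04 ± 0.17, edgeR adjusted p = 0.000245). In all 3 genes no JAK2VF library overlapped a control. Sdc4 (syndecan 4), a heparan sulfate proteoglycan, Mn1, a transcriptional coregulator, and Tnip3, an inhibitor of NF-kB signalling, had log2 changes of -1.84, -1.63 and -1.44 (edgeR adjusted p = 0.000163, 0.000148 and 9.43e-05). Ccn3 (Nov), a secreted matricellular protein, was higher, with 1.09 to 5.36 CPM in JAK2VF libraries and 0.0476, 0.221, 0.00 and 0.0886 CPM in controls, or 421 counts against 8 (4.88 ± 0.91, edgeR adjusted p = 0.00162).

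The 6 JAK2VF libraries were not uniform. On the first axis of a principal component analysis of the 10 libraries over the 1000 most variable genes, which held 25% of the variance, the JAK2VF libraries of batch 1 scored 68.7 and 37.9 and those of batch 2 between 2 and 13.3, and the controls between -45.2 and -19.1. All JAK2VF scores were thus above all controls, with batch 1, which is all female, farthest away. At the adjusted threshold 83 genes were called in batch 1 alone, of which 62.7% were higher, and 38 in batch 2 alone, of which 42.1% were higher, against 56.7% in the full fit. The spindle list shows the spread among JAK2VF libraries most simply, with sums of 4320 and 3840 CPM in batch 1 and 1960, 2080, 2340 and 4090 CPM in batch 2, against 905 to 1570 CPM in the controls. The immediate-early sums ran the other way, with 15900 and 24300 CPM in the JAK2VF libraries of batch 1 and 28000, 42200, 41100 and 26700 CPM in those of batch 2, against 14200, 6640, 18200 and 21000 CPM in controls. Batch differs together with sex among the JAK2VF libraries, so the 2 cannot be told apart there.

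The comparison could be repeated with libraries that it does not share, those labelled Ezh2 +/- (8 with the mutation against 7 without) and Ezh2 -/- (6 against 4). The fit shares its terms for batch and sex and its spread between genotypes. Of the 358 genes higher with the mutation when Ezh2 is intact, 355 were also positive with Ezh2 +/- (99.2%) and 260 were called higher there (72.6%), against 4.88% of all genes tested. Of the 273 lower genes, 259 were negative (94.9%) and 173 called lower (63.4%), against 4.18% of all. With Ezh2 -/-, 345 of the 358 were positive (96.4%) and 167 called higher (46.6%, against 2.86% of all), and 247 of the 273 were negative (90.5%) and 82 called lower (30%, against 1.97% of all). Changes were smaller in the repeat, with medians of 0.6 and -0.64 for Ezh2 +/- and 0.58 and -0.51 for Ezh2 -/-, against 0.84 and -1.0 here, where the genes were chosen. In all 3 Ezh2 genotypes 153 genes were called higher and 74 lower. Called with intact Ezh2 and in neither of the other genotypes were 84 higher and 92 lower genes. Each genotype was also fitted by itself, with batch but no term for sex. Same-sign shares were then 97.6% to 99.4% with Ezh2 +/- and 96.1% to 97.5% with Ezh2 -/-. Of the 273 lower genes 253 were measured in the first of these fits and 256 in the second. Sex was uneven with Ezh2 -/-, where 5 females and 1 male carried the mutation and 1 female and 3 males did not. Of the libraries labelled Ezh2 +/- without the mutation, batch 1 replicates 1 and 3 were put in doubt by an earlier reading of these data. Replicate 3 had 0 counts in a separately counted part of Ezh2, where the other libraries labelled Ezh2 +/- had 8 to 149 and those labelled Ezh2 -/- had 0 to 3. Replicate 1 had 85. Without both, 717 genes were called with intact Ezh2 and 921 with Ezh2 +/-, against 631 and 1353 with them. Of the 358 higher genes 217 were then called higher with Ezh2 +/- (60.6%, against 3.51% of all genes tested), and of the 273 lower genes 130 were called lower (47.6%, against 2.66%).

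**Figure D4:**
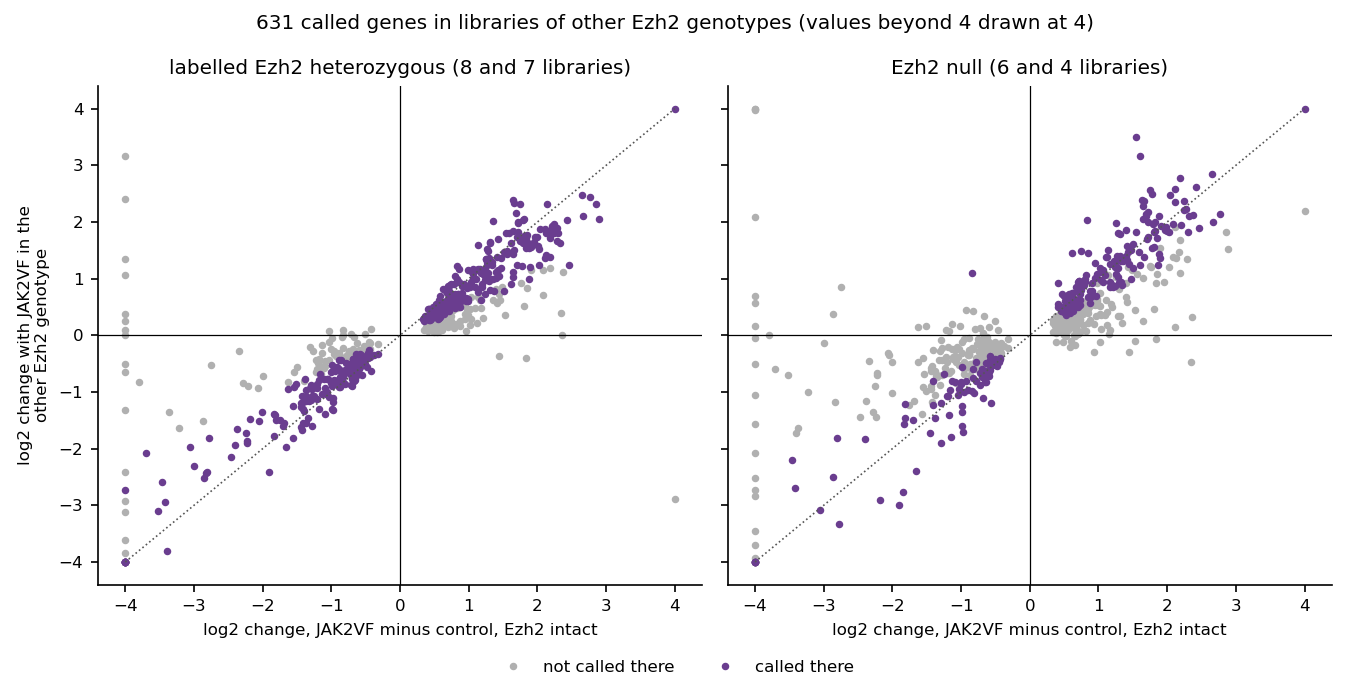
Log2 change with JAK2VF in Ezh2 +/- libraries (left, 8 with and 7 without the mutation) and Ezh2 -/- libraries (right, 6 and 4) on the y axis, against the change with intact Ezh2 on the x axis, for the 631 called genes. Purple points are called in the other genotype, grey points are not, the dotted line marks equal changes and values beyond 4 are drawn at 4. Most points have the same sign on both axes, with 355 of the 358 higher genes positive at left and 345 at right.

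The mitosis lists had, in the other genotypes, medians of 1.67 and 1.56 for Ezh2 +/- and 1.84 and 1.67 for Ezh2 -/-. Stem cell transcription factors had medians of -0.43 and -0.36 there. The immediate-early list differed in its median, 0.82 here, 0.33 with Ezh2 +/- and -0.21 with Ezh2 -/-, and its 7 rises here compare with 10 and 0. Fos and Zfp36, which were called here, were at -0.10 and 0.34 with Ezh2 -/-. Cish, not called here, was called with Ezh2 +/- (1.54, edgeR adjusted p = 5.02e-06) and with Ezh2 -/- (2.005, edgeR adjusted p = 1.12e-05). Jak2 itself was called higher in both (0.50 and 0.68, edgeR adjusted p = 0.0103 and 0.0159). None of these single-gene differences between genotypes passed edgeR's test of the difference, and the differences between list medians were not tested. That test called 0 genes for Ezh2 +/- against intact Ezh2, or 0% of those tested, with 622 at an unadjusted p under 0.05 (4.16%), while DESeq2 called 56 and limma-voom 0. For Ezh2 -/- against intact Ezh2 it called 1 gene (0.00669%), with 809 at an unadjusted p under 0.05 (5.41%), while DESeq2 called 92 and limma-voom 1. The gene called by edgeR was Lgals1, which encodes galectin 1, a secreted lectin. It had 13.1 to 26.6 CPM in JAK2VF libraries and 36.5, 29.5, 22.3 and 31 CPM in controls with intact Ezh2 (-0.84 ± 0.22, edgeR adjusted p = 0.0243). With Ezh2 -/- it was higher with the mutation (1.10, edgeR adjusted p = 0.00268), and the difference was 1.94 (edgeR adjusted p = 0.0277). The decrease of Lgals1 with intact Ezh2 was lost without control batch 1 replicate 1, JAK2VF batch 1 replicate 1 or control batch 2 replicate 4 (edgeR adjusted p up to 0.101). The test of the difference called 0 genes under the replicate block, in either batch alone, in females alone, without the 2 doubted libraries and without each of those 3 libraries.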

How the data were processed

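Gene expression was measured by RNA-seq of 1000 sorted LT-HSCs per library, with RNA isolated by PicoPure and amplified with a SMARTer low-input kit, per the labels' protocols. The authors deposited raw read counts per gene for each of 35 libraries, with no normalisation. STAR and build mm9 are named in the submitters' processing notes. Aligner version, counting tool, annotation and strandedness: not given in the sources used here. Therefore overlapping and antisense genes cannot be told apart. Depth was 13554182 to 48557175 counts per library. A separate row for a part of Ezh2, at most 0.000935% of a library, was kept out.

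Symbols for 19075 of 19138 gene IDs came from a RefSeq table of another build, used for names only. Genes of low count were removed with filterByExpr (4193 genes, and 41 had no count), which left 14945. TMM factors were 0.937 to 1.062. The main test was edgeR 4.0.16's robust quasi-likelihood fit over all libraries in R 4.3.3, with terms for group, batch and sex, Benjamini-Hochberg adjustment over all genes tested and a threshold of 0.05. The common biological coefficient of variation was 0.554. Scripts were tested on simulated data. Sequences are from RefSeq, build GRCm38.p6. DESeq2 1.42.0, limma 3.58.1 and further alternatives were tried, and the fit without the robust prior was chosen after seeing the data. Figures were drawn with matplotlib 3.10.9 in Python 3.11.15.

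The members and gene lists were chosen with earlier results of these data known. Named genes followed a rule: Jak2 and Ezh2, the 20 largest changes each way at a mean log2 CPM of 3 or more, up to 4 calls each way per list by adjusted p, all members of 5 lists (sort markers, JAK-STAT genes, STAT targets, cytokine receptors, CDK inhibitors) and the 5 smallest adjusted p-values of each difference. Outside it, and named after their values were seen, are Ccnb1, Aurkb, Mki67, Smc4, Ckap2, Kif22, Mcm5, Hlf, Mecom, Nkx2-3, Jam2, Rian, Pf4, E2f7, Cdk4 and Tfdp1, and those said to be so in the text. Replicate numbers were not used in the main fit, and whether they pair the libraries was not settled. Hba-a1 and Hba-a2 have identical counts and their values are uncertain. Some genes that passed the test are not reported here.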

Additional observations from a re-analysis of the deposited data

Results flagged for a closer look

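A library was singled out where its gap to the nearest other library of its group was large against the whole range of the group, by Dixon's 95% criterion. Chance alone does this in about 1 of 20 groups, and here it was met 14 times in 232 groups of values from the named genes. No cause was tested for any of them.

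JAK2VF batch 1 replicate 2 stood high in 5 genes. It had 24.3 CPM of Foxo1 (13.5 to 16.4 CPM in the other JAK2VF libraries), 70.3 CPM of Podxl (15.1 to 32.7), 35.2 CPM of Ltbp3 (24.3 to 26.4), 5.36 CPM of Ccn3 (1.09 to 2.56) and 41.9 CPM of E2f7 (10.8 to 20.3). JAK2VF batch 1 replicate 1 stood high in Cyp26b1, with 3.38 CPM against at most 0.516 CPM in the others. JAK2VF batch 2 replicate 1 stood low in Tkt, with 777 CPM against 956 CPM or more. JAK2VF batch 2 replicate 3 had 32.4 CPM of Hba-a1, where the others had at most 11.1 CPM, and 0.0293 CPM of both Cldn5 and Ms4a1, a single count each, where the others had none. Among controls, batch 2 replicate 4 was low in Chek1 (4.34 CPM, others 16 to 18.3 CPM). Control batch 1 replicate 2 was high in Rbl1 (48.8 CPM, others 25 to 29 CPM) and was the only control with Ikzf3 counts (3.57 CPM). Control batch 1 replicate 1 was the only one with Il1rl1 counts (3.24 CPM).

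The effect of the mutation on Lgals1 differed between Ezh2 -/- and intact Ezh2 by 1.94 log2 units in the test of the difference (edgeR adjusted p = 0.0277). That test called 0 genes under the replicate block, in either batch alone, in females alone, without the 2 doubted libraries, and without control batch 1 replicate 1, JAK2VF batch 1 replicate 1 or control batch 2 replicate 4.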

How the results depend on the processing

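The 631 calls (358 higher, 273 lower) kept their sign in every alternative fit that tested them, except 1 gene each in batch 2 alone and without control batch 1 replicate 1, in fits that use the libraries on which they were chosen. Their number moved more. The DESeq2 Wald test called 1003 genes (562 higher, 441 lower), batch 1 alone 83 (52 and 31), batch 2 alone 38 (16 and 22) and females alone 411 (255 and 156). With 1 library left out there were 282 to 676 calls, 152 to 402 higher and 130 to 274 lower. The fewest, 282, 314 and 399, came without control batch 1 replicate 1, JAK2VF batch 1 replicate 1 and JAK2VF batch 1 replicate 2. Same-numbered libraries of the 2 groups had correlations of -0.04, -0.04, -0.03 and 0.04 around the mean of their group within a batch. With 2 libraries per group in batch 1, the first 2 values are the same number by construction. The check is therefore weak and cannot show that the libraries are unpaired. With batch and replicate number as a block, 826 genes were called, of which 526 were shared.

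With Ezh2 +/- the 1353 calls became 899 with the compared groups only, 176 in batch 1, 636 in batch 2 and 349 in females. Fits of the compared groups only had no term for sex. With Ezh2 -/- the 723 calls became 1117 by DESeq2, 421 under the replicate block, 3 in batch 1, 373 in batch 2 and 56 in females. For the difference between Ezh2 +/- and intact Ezh2, DESeq2 called 56 genes. For Ezh2 -/- the 1 call became 92 by DESeq2, 5 with the compared groups only, 2 without a term for sex and 0 under the replicate block, in either batch, in females or without the 2 doubted libraries, and was 0 to 2 with 1 library left out.

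Of 106 called genes named in the text, 43 lost the call in at least 1 fit without a library, and the replicate block lost 18. In females alone 59 of the 106 kept the call and 47 lost it. Among those lost there were Sult1a1, Cyp26b1, Lmo2, Btg2 and Igf2r (edgeR adjusted p = 0.0644, 0.187, 0.0607, 0.103 and 0.0555). Batch 1 alone lost 75 of the calls and batch 2 alone 90. Signs turned for Slamf1 (-0.08 in batch 1 alone, -0.03 without control batch 1 replicate 2), for Kit (-0.07 under the replicate block) and for Cd48 (-0.01 in batch 1 alone, -0.29 without JAK2VF batch 1 replicate 1, -0.01 without control batch 2 replicate 2), none of them called. The sign also turned for Il1rl1 (1.8 in batch 2 alone, 1.11 without control batch 1 replicate 1). The cause was not tested. Fits on part of the libraries have fewer samples. With 1 library left out the changes ranged from -0.03 to 0.35 for Slamf1, from -0.29 to 0.82 for Cd48 and from -10.41 to 1.11 for Il1rl1. Depth limits the genes with few counts, such as Il1rl1, Ikzf3 and Ms4a1.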
